A study of Mus musculus with 8 samples.

Results

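Klf4 and 9 other members of the Krüppel-like factor (KLF) family were followed through a knockdown of Klf4 in a mouse alpha cell line: Klf3, Klf5, Klf6, Klf7, Klf9, Klf10, Klf13, Klf15 and Klf16. They were taken by gene symbol and are 10 of the 17 KLF genes in the count table, which lists 55536 genes. The cells were alphaTC6, an immortalised line of glucagon-producing pancreatic alpha cells, labelled as wild type in genotype in both groups. In the treated group a pool of siRNAs against Klf4 was delivered by a lipid reagent in a 48 h reverse transfection. The control group received scramble siRNA (siScramble) in the same way, so every library comes from lipid-transfected cells of a single cell line. Poly(A) RNA was sequenced from 4 biological replicates of each group, spread over 2 labelled batches. Batch 1 held scramble replicates 1 and 2 and Klf4 siRNA replicates 1, 2 and 4, and batch 2 held scramble replicates 3 and 4 and Klf4 siRNA replicate 3. The study asked which genes Klf4 regulates in alpha cells, and the comparison below asks how its relatives stood beside it and whether their transcripts moved when it was lowered.

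KLF proteins are transcription factors that share a block of C2H2 zinc fingers at their carboxyl end, with which they bind CACCC and related GC-rich elements. Outside the fingers they differ, and the family is commonly divided by the partners it recruits. Klf3, Klf8 and Klf12 bind the C-terminal binding proteins (CtBP) and mostly repress. Klf1, Klf2, Klf4, Klf5, Klf6 and Klf7 bind acetyltransferases and often activate. Klf9, Klf10, Klf11, Klf13, Klf14 and Klf16 bind the Sin3 corepressor, while Klf15 and Klf17 are usually placed outside these groups. Klf4 itself is best known as a reprogramming factor and as a regulator of epithelial differentiation.

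The finger-coding region had the same length, 243 bases, in the longest annotated coding transcript of all 17 KLF genes. It is shown here by the 30 bases (61 to 90 of that region) that code for the end of the first finger and the linker to the second, because this stretch shows both what the family shares and where Klf9 departs from Klf4. Sequences are from the GENCODE release 21 transcripts (GRCm38), read 5′ to 3′ on the coding strand, and capitals mark bases that differ from Klf4.
Klf4: cgaactcacacaggcgagaaaccttaccac
Klf7: AgGactcacacaggTgagaaGccttacAaG
Klf6: cgCactcacacaggAgaAaaGccttacAGA
Klf3: AgaactcaTacaggAgaAaaGccGtacAaA
Klf13: AgaactcacacaggTgagaGGccttTcGCc
Klf15: cgTCGGcacacaggcgagaaGccCtTTGCc
Klf9: AgaGTGcaTacaggTgaACGGccCtTTcCc
Klf7 differed from Klf4 at 6 of the 30 bases, Klf6 and Klf13 at 7, Klf3 at 8, Klf15 at 10 and Klf9 at 14. Over the whole 81-residue finger block, identity to Klf4 among the other 9 genes was highest for Klf5 (82.7%) and Klf3 (81.5%) and lowest for Klf9 and Klf16 (63.0% each). Klf9 was closer to Klf13 (81.5% identity) than to Klf4. Measured over whole transcripts, the longest run of bases that any of the 9 shared with the Klf4 transcript was 16, in Klf7, and the shortest such maximum was 12, in Klf3 and Klf16. The sequences of the siRNA pool are not given in the sources used here, so no siRNA was compared with these transcripts.

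Total counts ran from 45954151 to 64185987 per library. The first principal component of log2 CPM (read counts on a common library scale, after TMM) held 59.9% of the variance and separated the 3 batch 2 libraries from the 5 of batch 1, so batch was a term of the fit. Among alpha cell markers all 8 were measured, and their summed level was 5891 to 13917 CPM in scramble and 5628 to 12576 CPM after Klf4 siRNA. Glucagon (Gcg) was at 1257 and 1244 CPM in scramble replicates 1 and 2 (batch 1), against 8913 and 8833 CPM in scramble replicates 3 and 4 (batch 2). After Klf4 siRNA it was at 1065, 1074, 7640 and 1231 CPM in replicates 1 to 4, each below the controls of its batch (log2 fold change −0.18, SE 0.04, edgeR adjusted p = 0.0095). Ins1 and Ins2, the insulin genes, were at 0 counts throughout. The 5 beta cell markers summed to at most 3.93 CPM, nearly all of it Mafa. Delta, PP and acinar markers summed to at most 0.183 CPM per list in any library, the 2 endothelial ones to 0.421 CPM and the 3 blood cell ones to 2.50 CPM. Duct markers summed to 1.32 to 6.48 CPM (Krt19 near 0) and fibroblast markers to 18.6 to 26.9 CPM (mostly Col1a2, with Col1a1 near 0). Whether those cells or transcripts play a part in the KLF values was not tested.

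Klf4 transcripts fell to 39.8% of control. Klf4 (ENSMUSG00000003032, chr4:55527143-55532466, minus strand) had 39.2, 35.1, 46.3 and 46.8 CPM in scramble (replicates 1 to 4, in that order here and below). After Klf4 siRNA it had 12.5, 11.5, 19.8 and 18.8 CPM. The groups did not overlap, so the targeted gene was lower in each library labelled as knocked down. Within batch 1, Klf4 siRNA replicate 4 retained more Klf4 than replicates 1 and 2 did. The log2 fold change was −1.33 (SE 0.17, adjusted p = 0.0083, edgeR quasi-likelihood test with Benjamini-Hochberg adjustment over 16333 genes), and it was −1.46 without Klf4 siRNA replicate 4. The call was lost without scramble replicate 1 (−1.27, edgeR adjusted p = 0.0524) and with batch 1 alone (−1.39, edgeR adjusted p = 0.104). In bulk RNA, fewer cells with Klf4 and less Klf4 RNA in each cell cannot be told apart, and that holds for every gene below.

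Before knockdown Klf4 had one of the 3 highest mean levels among KLF transcripts of these cells. Levels were compared between genes as CPM per kilobase of exon, using the union of annotated exons. In scramble libraries Klf16 stood at 14.1 ± 1.56 CPM per kb, Klf4 at 13.7 ± 1.86 and Klf13 at 13.3 ± 0.415 (mean ± SD, n = 4). These neighbours overlapped: Klf16 was above Klf4 in 2 of 4 libraries, and Klf4 above Klf13 in 3 of 4. Klf9 followed at 11.2 ± 0.437 CPM per kb, below Klf13 in every scramble library with no overlap. Klf10, a TGF-beta-inducible factor, came next at 8.78 ± 0.706 CPM per kb, again with no overlap with Klf9, and Klf7 at 7.49 ± 1.05 overlapped Klf10.

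A lower tier began below Klf7 with a gap between the ranges. Klf3 stood at 4.64 ± 0.0568, Klf6 at 4.59 ± 0.366 and Klf15 at 3.15 ± 0.672 CPM per kb (SD, n = 4). Klf3 and Klf6 overlapped, and Klf11, not one of the 10, lay between Klf6 and Klf15 at 4.31 ± 0.413 CPM per kb and overlapped both. Klf5, known from gut and vascular tissue, was lowest of the 10 at 1.08 ± 0.159 CPM per kb, below Klf15 without overlap. The placing of Klf3 depends on its length: its exon union is 11243 bp and its longest transcript 5221 bp, and with the latter it stood at 9.99 CPM per kb, above Klf7. With longest transcripts the mean of Klf4 ranked 3, behind Klf13 (15.6 CPM per kb) and Klf16, and Klf4 ranked 4, 5, 2 and 2 in the single scramble libraries. Klf10 (12.1 CPM per kb) then stood beside Klf9 (11.98) rather than below it. Of the remaining KLF genes, Klf2, Klf1, Klf12 and Klf8 had 0.158 to 0.463 CPM per kb, Klf17 had at most 4 counts in a library, and Klf14 had 0 counts everywhere, which allows up to 0.0653 CPM (3 counts in the smallest library, counting error only).

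**Figure D1:**
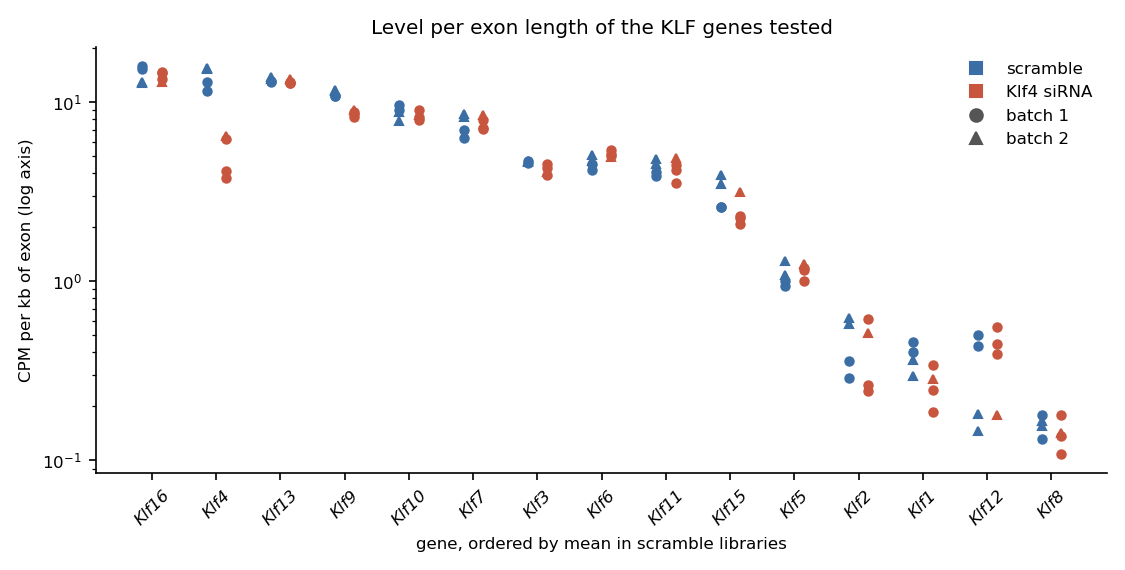
Level of the 15 tested KLF genes in each library as CPM per kb of exon on a log axis, ordered by the scramble mean; colours give the treatment, circles batch 1 and triangles batch 2. Klf4 lies beside Klf16 and Klf13 in scramble (means 13.7, 14.1 and 13.3) and is at 5.13 after Klf4 siRNA; Klf9 goes from 11.2 to 8.63, with no overlap between its groups.

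The order around Klf4 changed with the knockdown. By level per kb, Klf4 ranked 2, 3, 1 and 1 among KLF genes in the scramble libraries. It ranked 9, 8, 6 and 6 in the treated ones. Its mean after Klf4 siRNA, 5.13 ± 1.40 CPM per kb (SD, n = 4), overlapped that of Klf6, 5.13 ± 0.203. As a ratio to Klf4 in the same library, Klf16 went from 1.06 (range 0.836 to 1.37) in scramble to 2.90 (1.99 to 3.84). Klf13 went from 0.978 (0.875 to 1.13) to 2.67 (2.05 to 3.44). For Klf9 the ratio moved less, from 0.822 (0.755 to 0.938) to 1.77 (1.39 to 2.20), since its own level was lower too. By exon union Klf10 and Klf7 were below Klf4 in every scramble library and above it in each Klf4 siRNA library, at ratios of 1.74 (1.27 to 2.19) and 1.55 (1.29 to 1.90). With longest transcripts Klf10 was already above Klf4 in both scramble libraries of batch 1, at ratios of 1.01 and 1.07. Klf6 (mean ratio from 0.337 to 1.06) and Klf3 (from 0.343 to 0.877) were above Klf4 only in Klf4 siRNA replicates 1 and 2 by exon union. With longest transcripts Klf3 was above Klf4 in all 4 treated libraries, at a mean ratio of 1.88 (1.34 to 2.56). Klf15 (from 0.228 to 0.495) and Klf5 (from 0.0790 to 0.237) remained below Klf4 in all 8 libraries. These ratios contain the fall of Klf4 by construction and are given as a description.

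Klf4 made up 15.6% ± 1.63 of the summed per-kb level of the 17 KLF genes in scramble and 6.81% ± 1.70 after Klf4 siRNA (SD, n = 4; ranges 13.5% to 16.99% and 5.19% to 8.32%). The sum itself went from 87.6 ± 2.92 to 74.96 ± 2.25 CPM per kb. Leaving Klf4 out, the other 16 genes summed to 73.9 ± 1.23 CPM per kb in scramble (72.4 to 75.02) and 69.8 ± 1.35 after Klf4 siRNA (68.7 to 71.5). The 2 ranges did not overlap, and the sum, which was neither tested nor adjusted for batch, was lower after Klf4 siRNA. Klf9 had the largest drop of the 16, from 11.2 to 8.63 CPM per kb. The means of Klf5, Klf6, Klf7 and Klf12 were higher after Klf4 siRNA, and those of the remaining genes were lower or at 0. With longest transcripts as lengths the Klf4 share was 13.6% in scramble and 5.86% after Klf4 siRNA, and the sum without Klf4 was 87.7 ± 1.31 and 82.7 ± 1.63 CPM per kb (SD, n = 4).

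**Figure D2:**
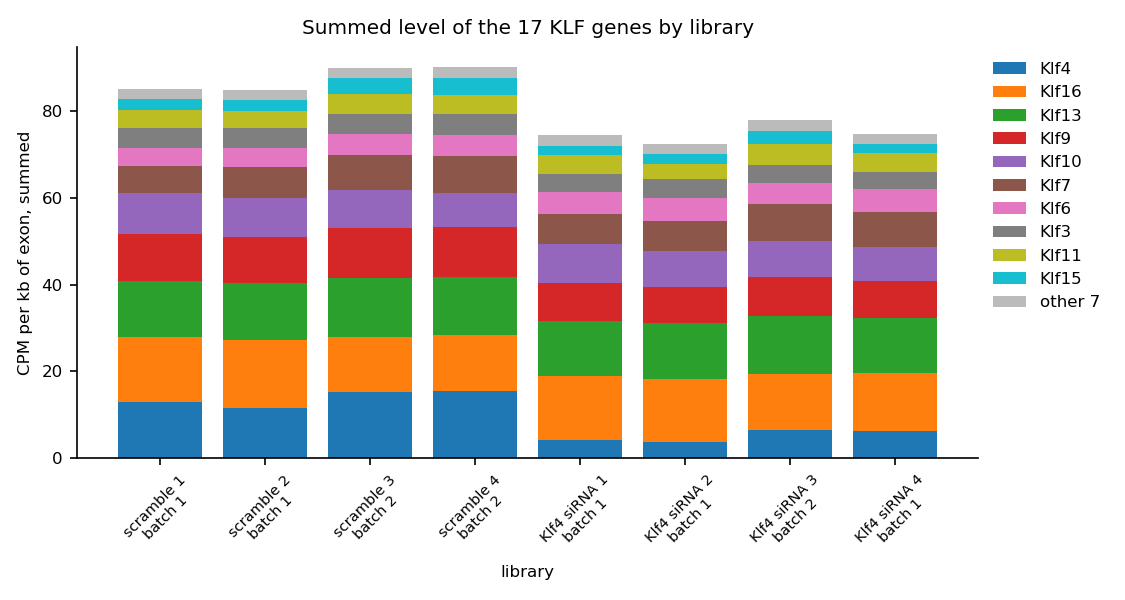
Stacked level of the 17 KLF genes in each library, in CPM per kb of exon; each colour is a gene and grey holds the 7 lowest. The Klf4 segment takes 13.5% to 16.99% of the bar in scramble and 5.19% to 8.32% after Klf4 siRNA, and the rest of the bar sums to 72.4 to 75.02 against 68.7 to 71.5 CPM per kb.

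Beside Klf4, Klf9, Klf3 and Klf15 were lower after Klf4 siRNA and Klf6 was higher, while Klf5, Klf7, Klf10, Klf13 and Klf16 did not pass the test. All 10 genes passed the filter on low counts. In all, 5 of the 10 were called at an adjusted p under 0.05 by edgeR, 4 lower and 1 higher, and 4 of the 9 without Klf4. Over all 16333 genes tested, 11.7% were called in either direction, 6.81% as lower and 4.88% as higher. That share rises with expression: with a filter at a mean of 5 CPM, which all 10 pass, 19.4% of 10387 genes were called. The median log2 fold change of the 9 was −0.074, beside 4.3e-05 over all genes. Groups did not overlap for 3 of the 10 (Klf4, Klf9 and Klf3), against 10.5% of all genes. The count of 5 fell to 1 (Klf9) without scramble replicate 1, to 3 without scramble replicate 2 or without Klf4 siRNA replicate 3, and to 2 (Klf4 and Klf9) with no batch term. With batch 1 alone it was 2 (Klf9 and Klf6).

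**Figure D3:**
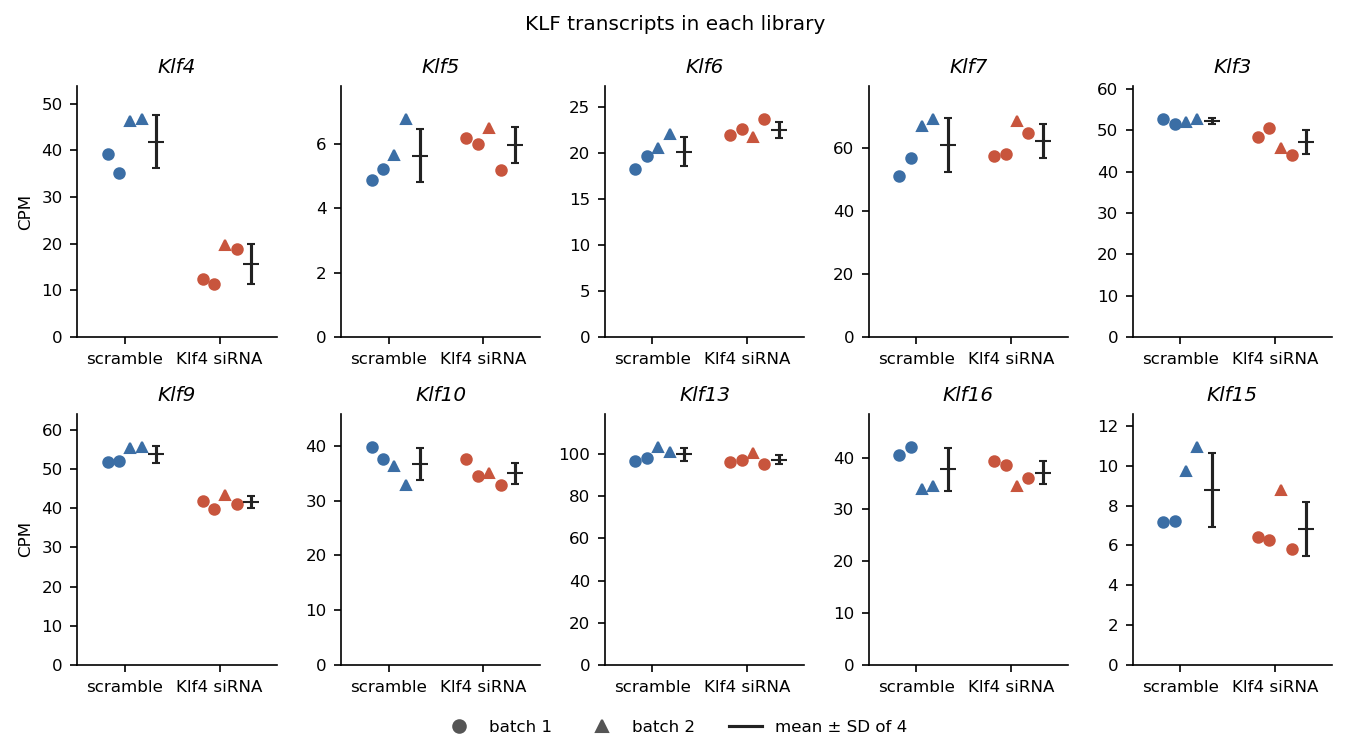
CPM of the 10 KLF genes in each library, with a separate axis from 0 for each gene; circles are batch 1, triangles batch 2, and bars the mean ± SD of 4. Klf4, Klf9 and Klf3 show no overlap between the groups, and Klf15 and Klf7 are split by batch as well.

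**Figure D4:**
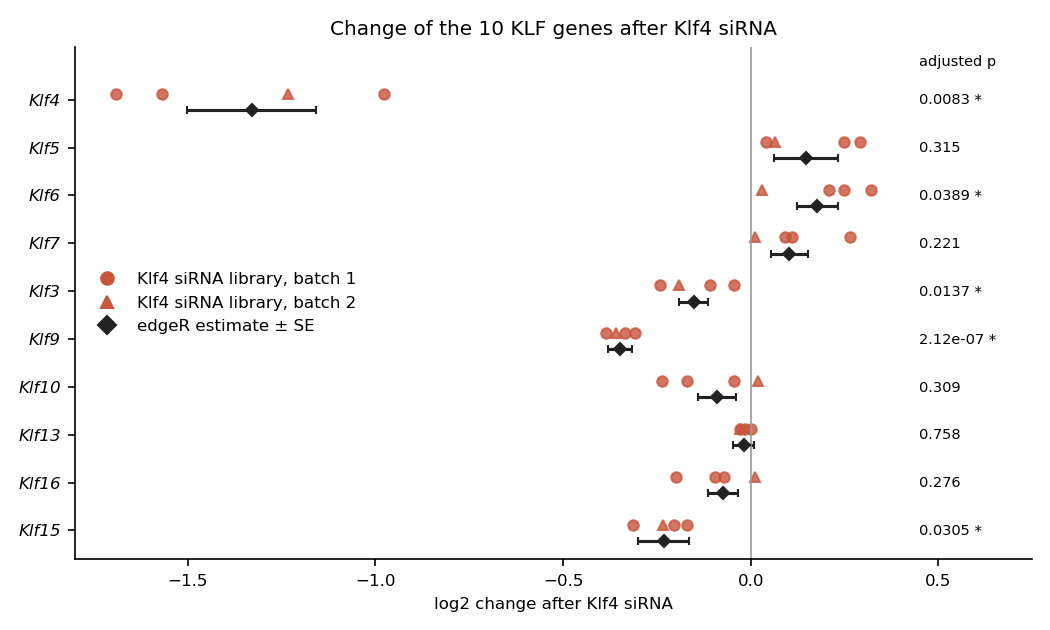
Change of each gene in each Klf4 siRNA library, as log2 CPM minus the mean of the scramble libraries of its batch, with the edgeR log2 fold change and its SE in black and the adjusted p at the right (asterisk under 0.05). The 4 libraries of Klf9 lie within −0.38 to −0.31, whereas those of Klf4 spread from −1.69 to −0.98.

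Among the Sin3-binding members, Klf9 fell and the others did not pass. Klf9 (ENSMUSG00000033863, chr19:23141226-23168134, plus strand) is a hormone-responsive factor, induced by glucocorticoids and thyroid hormone. Its level was 51.9, 52.0, 55.4 and 55.8 CPM in scramble and 42.0, 39.8, 43.3 and 41.2 CPM after Klf4 siRNA. Each treated library lay below the lowest control. The log2 fold change was −0.35 (SE 0.03, edgeR adjusted p = 2.12e-07), which leaves 78.5% of control. Against the controls of its own batch the change was −0.31, −0.38, −0.36 and −0.34 in Klf4 siRNA replicates 1 to 4. The replicate that kept more Klf4 than its batch mates, replicate 4, was thus inside the range of the others for Klf9. The call held in all 18 alternative fits, with log2 fold changes from −0.37 to −0.34. The span of Klf9 contains the annotated microRNA gene Mir1192, with no shared exon bases.

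Klf13, a factor of lymphoid and cardiac tissue and the closest of the 9 to Klf9 in its fingers, had the smallest log2 fold change of the 10. It had 96.6, 98.1, 103.6 and 101.2 CPM in scramble and 96.4, 97.4, 100.5 and 95.4 CPM after Klf4 siRNA, with a log2 fold change of −0.019 (SE 0.03, edgeR adjusted p = 0.758). Its change in single libraries stayed between −0.029 and 0.00052. Klf10 had 39.9, 37.6, 36.4 and 32.8 CPM in scramble and 37.6, 34.4, 35.0 and 32.9 CPM after Klf4 siRNA, and the groups overlapped (log2 fold change −0.091, SE 0.05, edgeR adjusted p = 0.309). Klf16, first in mean level per kb by exon union, had 40.5, 42.1, 33.9 and 34.5 CPM in scramble and 39.3, 38.7, 34.5 and 36.0 CPM after Klf4 siRNA. It also overlapped (log2 fold change −0.074, SE 0.04, edgeR adjusted p = 0.276). In Klf10 and Klf16 the changes had a negative sign in the 3 treated libraries of batch 1 and a positive one, of 0.019 and 0.011, in batch 2.

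The size of the Klf9 change was set against that of the other 8 non-targeted genes by the log2 ratio of Klf9 to each, with batch means removed. The change of Klf9 was the more negative in 4 of 4 libraries for every pair. The difference was −0.53 against Klf6, −0.50 against Klf5, −0.45 against Klf7, −0.33 against Klf13, −0.27 against Klf16, −0.26 against Klf10 and −0.20 against Klf3. For these 7 pairs the two-sided exact permutation test within batches gave p = 0.0333, the smallest that its 30 arrangements allow (0.0381 after Benjamini-Hochberg adjustment over the 8 pairs). Against Klf15 the difference was −0.12, with per-library values from −0.18 to −0.022 (exact permutation p = 0.0667, also 0.0667 after adjustment), so those changes were not told apart. With libraries permuted over both batches the pair with Klf16 did not pass either (exact permutation p = 0.0571, 0.0653 after adjustment). Klf9 was singled out with its fall known in these same libraries. The pairwise p values carry that choice and are no independent support for the fall or for its size beside the others. As the 7 pairs share the smallest p that can be reached, the test does not rank their differences.

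Klf3, the CtBP-binding member, fell by a small amount. Klf3 (ENSMUSG00000029178, chr5:64803388-64832901, plus strand), a repressor studied in red cells and fat, had 52.7, 51.4, 51.9 and 52.7 CPM in scramble and 48.3, 50.5, 45.8 and 44.1 CPM after Klf4 siRNA. The scramble values lay close together, and all 4 treated values were below them, replicate 2 narrowly. The log2 fold change was −0.15 (SE 0.04, edgeR adjusted p = 0.0137), or 90.0% of control. Single libraries changed by −0.11, −0.044, −0.19 and −0.24. The call was lost without scramble replicate 1 (edgeR adjusted p = 0.0748), without Klf4 siRNA replicate 3 (0.136), with no batch term (0.139) and with batch 1 alone (0.148). Exons of Klf3 share 404 bases with an annotated gene on the opposite strand, Gm20033, and the use of strand in counting is not given in the sources used here, so some reads may belong to that gene.

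Of the members that bind acetyltransferases, Klf6 rose, and Klf5 and Klf7 did not pass. Klf6 (ENSMUSG00000000078, chr13:5861482-5870394, plus strand), a widely expressed factor induced by injury, had 18.3, 19.7, 20.5 and 22.1 CPM in scramble and 21.97, 22.6, 21.7 and 23.7 CPM after Klf4 siRNA. The groups overlapped, since scramble replicate 4 was above Klf4 siRNA replicates 1 and 3. The log2 fold change was 0.18 (SE 0.05, edgeR adjusted p = 0.0389), or 113% of control. Its change was 0.21, 0.25 and 0.32 in Klf4 siRNA replicates 1, 2 and 4 of batch 1 and 0.029 in replicate 3 of batch 2. The interaction of batch and treatment for Klf6 had an unadjusted p of 0.0382 and an adjusted p of 0.999 (edgeR quasi-likelihood test). The Klf6 call was the least stable of the 5, as it was lost in 10 of 18 alternative fits. It was lost without scramble replicate 1 (edgeR adjusted p = 0.293), scramble replicate 2 (0.129), scramble replicate 3 (0.0701), and Klf4 siRNA replicates 1 (0.0680), 2 (0.0746) and 4 (0.0609). In limma-voom its adjusted p was 0.0645.

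Klf5 had 4.87, 5.21, 5.65 and 6.77 CPM in scramble and 6.17, 5.99, 6.47 and 5.18 CPM after Klf4 siRNA. The groups overlapped (log2 fold change 0.15, SE 0.08, edgeR adjusted p = 0.315), although each treated library had a positive sign against its batch controls, from 0.042 to 0.29. Klf7, a factor of developing neurons, had 51.0, 56.7, 66.8 and 69.1 CPM in scramble and 57.2, 58.0, 68.5 and 64.6 CPM after Klf4 siRNA. The groups overlapped, and the lower values of both were in batch 1 (log2 fold change 0.10, SE 0.05, edgeR adjusted p = 0.221). Klf7 exons share 3200 bases with opposite-strand annotations (Gm13748 and Gm26649), with the same limit on strand as for Klf3.

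Klf15, a glucocorticoid-induced regulator of amino acid and glucose metabolism, was lower after Klf4 siRNA and higher in batch 2. Klf15 (ENSMUSG00000030087, chr6:90462576-90475238, plus strand) had 7.20, 7.25, 9.74 and 10.97 CPM in scramble and 6.42, 6.26, 8.79 and 5.81 CPM after Klf4 siRNA. The groups overlap only because the treated library of batch 2 exceeds the controls of batch 1: within each batch every treated value was below every control. The log2 fold change was −0.23 (SE 0.07, edgeR adjusted p = 0.0305), and single libraries changed by −0.17, −0.20, −0.23 and −0.31. The call was lost without scramble replicate 1 (edgeR adjusted p = 0.106), scramble replicate 2 (0.107), scramble replicate 4 (0.0722) and Klf4 siRNA replicate 3 (0.145). With no batch term the log2 fold change was −0.37 and the adjusted p 0.381 in edgeR, and with batch 1 alone the adjusted p was 0.145.

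Batch moved several of these genes as much as or more than the knockdown did. In the batch term of the fit 5 of the 10 passed an adjusted p of 0.05 in edgeR, against 32.7% of all genes. Batch 2 was higher than batch 1 for Klf15 (log2 fold change 0.52, SE 0.07), Klf7 (0.27, SE 0.05), Klf5 (0.24, SE 0.09) and Klf9 (0.09, SE 0.03), and lower for Klf16 (−0.22, SE 0.04). Among the other KLF genes, Klf12 had a batch difference of −1.46 (SE 0.14, edgeR adjusted p = 6.39e-08), with 3.03 and 3.48 CPM in scramble replicates 1 and 2 and 1.01 and 1.26 CPM in replicates 3 and 4. Among the genes called for treatment, the batch difference was smaller than the treatment difference for Klf4, Klf9, Klf3 and Klf6, and larger for Klf15. What set the batches apart is not given in the sources used here. In the interaction of batch and treatment none of the 10 was called by edgeR (0% of all genes were called, 540 having an unadjusted p under 0.05), and 1 of the 10, Klf6, had an unadjusted p under 0.05. Batch 2 holds a single treated library, which limits that test.

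**Figure D5:**
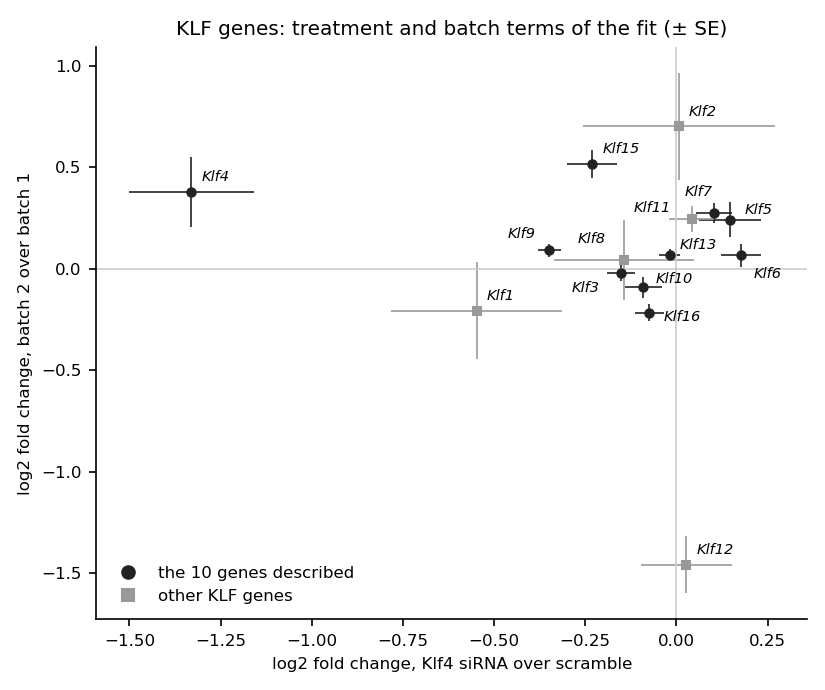
Treatment term (x axis, Klf4 siRNA over scramble) against batch term (y axis, batch 2 over batch 1) of the edgeR fit for the 15 tested KLF genes, both as log2 fold change ± SE. Klf4 and Klf9 lie to the left with batch terms of 0.38 and 0.09, Klf15 lies at −0.23 and 0.52, and Klf12 has the lowest batch term, −1.46.

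None of the other KLF genes passed in the treatment comparison. Of 7, 5 were tested, and edgeR and limma-voom called 0 of them, with 1 (Klf1) at an unadjusted p under 0.05 in edgeR. Over all genes edgeR called 11.7%, and with 5 genes a count of 0 is near that share. DESeq2 gave an adjusted p for Klf11 alone and did not call it. Klf1, the erythroid factor, had 0.580 ± 0.104 CPM in scramble and 0.404 ± 0.0989 after Klf4 siRNA (SD, n = 4) on 14 to 39 counts per library (log2 fold change −0.55, SE 0.23, edgeR adjusted p = 0.152). Klf2, the closest relative of Klf4 in its fingers (91.4% identity) and a factor of endothelium and T cells, was at 0.855 ± 0.305 and 0.754 ± 0.339 CPM (SD, n = 4). It had a log2 fold change of 0.0061, SE 0.26, whose sign changed in 6 of 17 alternative fits. Klf11, a Sin3-binding factor active in beta cells, was the one well-measured member of this set, at 18.7 ± 1.79 and 18.5 ± 2.46 CPM (SD, n = 4; log2 fold change 0.042, SE 0.06, edgeR adjusted p = 0.755). Klf8 and Klf12, which share the CtBP-binding group with Klf3, had log2 fold changes of −0.14 (SE 0.19) and 0.028 (SE 0.13).

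The corepressors that KLF proteins recruit included 4 genes that fell. Of 14 cofactor genes tested, 4 were lower and 0 higher after Klf4 siRNA in edgeR, against 6.81% of all genes called lower, and DESeq2 and limma-voom called the same 4. The list had a median log2 fold change of −0.013. Ctbp2, which encodes the corepressor bound by Klf3, had 47.1, 45.2, 44.8 and 45.8 CPM in scramble and 36.9, 37.2, 37.9 and 35.9 CPM after Klf4 siRNA. The groups lay far apart, and the log2 fold change of −0.31 (SE 0.03, edgeR adjusted p = 3.79e-06) held in all 18 alternative fits. Its paralogue Ctbp1 went from 282 ± 3.64 to 262 ± 2.54 CPM (SD, n = 4; log2 fold change −0.11, SE 0.03, edgeR adjusted p = 0.0075). That call was lost without scramble replicate 1 or 2, with adjusted p up to 0.0752, and with no batch term (0.0638).

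Both class I deacetylase genes of the list, whose products act in the Sin3 complex, also fell. Hdac1 had 92.5 ± 1.77 CPM in scramble and 85.7 ± 2.36 after Klf4 siRNA (SD, n = 4; log2 fold change −0.12, SE 0.03, edgeR adjusted p = 0.013). Hdac2 had 154 ± 2.45 and 143 ± 1.63 CPM (SD, n = 4; log2 fold change −0.11, SE 0.03, edgeR adjusted p = 0.0105). Calls for Hdac1 and Hdac2 were lost without scramble replicate 2 (edgeR adjusted p up to 0.111 for Hdac2) and without Klf4 siRNA replicate 3 (up to 0.137 for Hdac1). They were also lost with no batch term (0.119 for Hdac1 and 0.0724 for Hdac2) and with batch 1 alone (0.111 and 0.0633). Sin3a, the scaffold of the complex bound by Klf9 and its group, did not pass at 67.4 ± 1.82 and 65.6 ± 3.31 CPM (SD, n = 4; edgeR adjusted p = 0.449), nor did the acetyltransferase genes Ep300, Crebbp, Kat2a and Kat2b.

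Other lists tied to the family had few calls. The SP factors share the KLF type of fingers and bind GC boxes, and 6 of 9 had enough counts. By edgeR and limma-voom 0 of the 6 were called, as were 0 of the 4 with an adjusted p in DESeq2, against 11.7% of all genes in edgeR, with Sp1 and Sp4 at an unadjusted p under 0.05 in edgeR, and the median log2 fold change was −0.032. Of 8 ubiquitin ligase and protease genes reported to act on KLF proteins, 1 rose in edgeR: Fbxw7, a substrate receptor of SCF ligases, from 18.8 ± 0.859 to 20.5 ± 0.427 CPM (SD, n = 4; log2 fold change 0.15, SE 0.05, edgeR adjusted p = 0.0395). That 1 of 8 (12.5%) is near the 11.7% called over all genes. The Fbxw7 call was lost in 12 of 18 alternative fits, among them when any single library other than scramble replicate 4 was left out, with adjusted p up to 0.21. Klf9 and Klf15 belong to the glucocorticoid-responsive genes, so 10 others of that kind were read beside them, among them Fkbp5, Tsc22d3, Per1 and the receptor gene Nr3c1. In edgeR and limma-voom 0 of the 10 were called, again beside 11.7% of all genes, DESeq2 called 1 of the 9 with an adjusted p (Mt1, a metallothionein), and 2 (Mt1 and Mt2) had an unadjusted p under 0.05 in edgeR. The median of that list was 0.030 on the log2 scale.

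The promoters of Klf9 and Klf15, which fell, and of Klf13, which did not pass, are shown because KLF proteins bind CACCC and GC-box words of this kind. Each sequence is the 250 bases before the RefSeq start (GRCm38.p6), on the strand of the gene, with the words CACCC and GGGCGG and their reverse complements GGGTG and CCGCCC in capitals, counted on both strands and with overlapping matches of the 2 words merged in the capitals.
Klf9, chr19:23140976-23141225, plus strand: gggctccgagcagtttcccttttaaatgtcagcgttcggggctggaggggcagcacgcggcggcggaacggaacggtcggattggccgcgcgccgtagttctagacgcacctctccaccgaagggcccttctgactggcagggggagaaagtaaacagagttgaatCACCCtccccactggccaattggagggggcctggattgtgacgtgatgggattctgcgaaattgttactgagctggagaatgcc
Klf15, chr6:90462326-90462575, plus strand: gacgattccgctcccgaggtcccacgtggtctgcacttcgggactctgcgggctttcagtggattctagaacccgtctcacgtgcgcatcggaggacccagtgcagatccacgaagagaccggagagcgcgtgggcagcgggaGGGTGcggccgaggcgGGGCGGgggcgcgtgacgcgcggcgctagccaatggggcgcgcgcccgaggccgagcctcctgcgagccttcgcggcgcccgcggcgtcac
Klf13, chr7:63938916-63939165, minus strand: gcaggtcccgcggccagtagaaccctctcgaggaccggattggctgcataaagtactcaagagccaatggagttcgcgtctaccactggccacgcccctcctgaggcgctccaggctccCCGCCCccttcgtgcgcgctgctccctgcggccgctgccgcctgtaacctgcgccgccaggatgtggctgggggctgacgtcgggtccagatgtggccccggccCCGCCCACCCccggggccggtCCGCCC
Klf9 and Klf15 hold 1 CACCC word each, as Klf13 does. The GGGCGG word occurs 0 times in the Klf9 window, 1 time in that of Klf15 and 3 times in that of Klf13. Windows were found for 7 of the 10 genes. Of these 5 hold CACCC and 6 hold GGGCGG, in either orientation, while of 32851 RefSeq windows of this length 52.0% and 32.7% do. GC content was 59.6% for the Klf9 window, 72.0% for that of Klf15 and 71.6% for that of Klf13. A match is only a description of the letters. The window of Klf3, which also fell, holds 5 CACCC and 6 GGGCGG words, the most of the 7, but is not printed because it overlaps an annotated exon of Klf3. No window was used for Klf5, Klf10 and Klf16.

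The genes whose batch-centred log2 CPM most resembled that of Klf4 over the 8 libraries, among 12721 genes with a mean of at least 1 CPM, were Mcrs1 (Pearson r = 0.997), Dxo (0.996) and Rbbp8 (0.995). All 3 fell after Klf4 siRNA: the log2 fold change was −0.19 (SE 0.03) for Mcrs1, −0.23 (SE 0.04) for Dxo and −0.33 (SE 0.04) for Rbbp8, with edgeR adjusted p of 0.00022, 0.0012 and 3.79e-06. Klf9 had r = 0.958 with Klf4 and ranked 139, ahead of Klf15 (0.776) and Klf3 (0.621), while Klf5 (−0.720) and Klf6 (−0.714) had the most negative r among the 10. For Klf9 the nearest genes were Sipa1l1 (r = 0.999), Iqsec1 (0.993) and Txlna (0.993), with log2 fold changes of −0.13, −0.21 and −0.13 and SE of 0.03 each. The Sipa1l1 call was lost without Klf4 siRNA replicate 3 (edgeR adjusted p = 0.0588), with no batch term (0.423) and with batch 1 alone (0.0672). With no batch term the calls of Iqsec1 (0.211) and Txlna (0.347) were lost too. All these values share the 8 libraries and the treatment contrast, so each r is a description with no p. The genes were picked by their likeness to genes that fell, so their own falls and adjusted p are no separate result.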

How the data were processed

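RNA was measured in 8 libraries, 4 per treatment, grouped by the labels. The authors deposited raw counts for each gene as whole numbers; FastQC, STAR, featureCounts, DESeq2 and mm10 are named in the submitters' processing notes, without versions, and the design text names edgeR with batch correction. The extract protocol in the labels names isolated islets as the source, but the samples are labelled alphaTC6. All 55536 identifiers and symbols matched GENCODE release 21 (GRCm38); 0 rows lacked a gene and 0 columns were left unmapped.

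From the deposited counts, edgeR 4.0.16 in R 4.3.3 fitted batch and treatment to all 8 libraries (filterByExpr, 16333 genes; TMM factors 0.964 to 1.02; robust quasi-likelihood test, 5 residual degrees of freedom; Benjamini-Hochberg adjustment over all genes, threshold 0.05). SE was taken as the size of the log2 fold change over the root of F. The interaction was fitted separately. Changes per library use log2 CPM (prior count 2). The fit was tested on simulated data. Replicate numbers were not taken as pairs, since same-numbered libraries 4 lie in different batches. The alternatives were other model terms, DESeq2 1.42.0 size factors and Wald test, limma 3.58.1 voom, library size alone, no filter, a filter at a mean of 5 CPM, batch 1 alone, each library left out, and another gene length.

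The genes described and all lists were chosen with earlier results of these data known. The text names the 17 KLF genes, from each list up to 4 genes past the threshold with the smallest adjusted p, and the 3 genes most correlated with Klf4 and with Klf9. Other list members and markers are named outside that rule, with their values seen.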

Additional observations from a re-analysis of the deposited data

Results flagged for a closer look

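Sipa1l1, the gene whose pattern most resembled that of Klf9, had 1 library far from the others of its group. Klf4 siRNA replicate 3 had 67.7 CPM, whereas the other treated libraries had 53.8 to 54.9 CPM, and the gap to the nearest took 0.921 of the range of the 4 libraries, above Dixon's 95% critical value of 0.829. Glucagon (Gcg) had the same library apart, at 7640 CPM beside 1065 to 1231 CPM in the other treated libraries, a gap of 0.975 of the range. Klf4 siRNA replicate 3 is the only treated library of batch 2. The scramble libraries of that batch were high as well, at 73.8 and 74.4 CPM for Sipa1l1 and 8913 and 8833 CPM for Gcg. The 56 groups of 4 examined were both treatments of 28 genes: 15 tested KLF genes and the other genes whose tests or levels in both groups the text gives. Of these, 2 were past the critical value, where about 1 in 20, or 2.8, is the number that chance gives for libraries without batches. The groups mix batches, so that number is only a guide.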

How the results depend on the processing

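The number of the 10 KLF genes past the threshold, 5 as reported, was 2 with no batch term, 2 with the replicate block replacing batch, 2 with batch 1 alone, and 1 to 4 when a library was left out. It was 5 with the replicate block together with the batch term. In the other fits on all 8 libraries it was 4 or 5. The Klf4 log2 fold change was −1.39 with batch 1 alone (adjusted p = 0.104 in edgeR) and −1.46 to −1.24 with a library left out, where the call was lost without scramble replicate 1. Replicate numbers were not taken as pairs. Deviations from the group means of same-numbered libraries correlated at 0.49, 0.42, 0.72 and −0.34, and 5 of 8 libraries correlated best with their own number. Same-numbered libraries share a batch except in the last of these. After batch and treatment were removed the values were −0.00053, −0.040, −0.30 and 0.12. Residuals within a batch are tied to each other by the fit, so these correlations cannot decide whether the numbers were pairs. With the replicate block replacing batch 1220 genes were called and with both 3120, against 1909 as reported. Klf5 then passed (log2 fold change 0.24, edgeR adjusted p = 0.0231 with block and batch), and Klf15 did not (0.0784).

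Genes called over the whole table numbered 409 with no batch term, 934 without scramble replicate 1, 1012 without scramble replicate 2 and 1232 without Klf4 siRNA replicate 3 or, with 16549 genes tested, with batch 1 alone. Klf9 kept its direction and its call in all 18 alternatives run. Signs turned for 3 KLF genes that were called in no fit (DESeq2 gave no adjusted p for Klf2 and Klf12). Klf2 was −0.19 with no batch term, −0.20 with the replicate block replacing batch, −0.32 with block and batch, −0.071 in limma-voom and −0.29 to 0.19 with a library left out. Klf11 was −0.018 with no batch term, −0.021 with the replicate block replacing batch and −0.018 with block and batch. Klf12 was −0.011 with batch 1 alone and −0.067 to 0.11 with a library left out. Klf4 ranked 2 by level per kb in scramble, but 3 with longest transcripts, 3 in batch 1 and 1 in batch 2, and its share of the summed KLF level was 13.6% with longest transcripts. Without the batch term or with the block replacing it, Sipa1l1 (adjusted p up to 0.423) and Txlna (up to 0.347) were not called. With libraries permuted over both batches, 6 rather than 7 of the 8 Klf9 pairs passed after adjustment, the pair with Klf16 being lost. Except for the longer or shorter lengths and the fewer libraries, which are part of the setting itself, the cause of these shifts was not tested. Depth limits Klf1, Klf2 and Klf8, which had 14 to 74 counts per library.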
